A study of Mus musculus with 3 samples.

Results

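The 7 genes described here are the nuclear and neural long noncoding RNAs Malat1, Neat1, Miat, Tug1, Pantr1, Rmst and Dlx6os1, followed in wild-type mouse cortical neurons. They were chosen by name, and all 7 had a value among the 3732 long noncoding genes and 27484 genes of the table. A gene's value is that of its annotated transcript with the most reads, that is, the highest product of exonic length and TPM, the relative abundance per unit of transcript length. The 35 rows that matched a member by transcript identifier were all read, together with 12 rows that matched Rmst transcripts by position alone. Overlapping transcripts of 1 gene share reads in this table, so the TPM of a single transcript is lower than a TPM scaled over genes.

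Total RNA was taken from mouse cortical neurons of wild-type (WT) genotype under control treatment (CON). The 3 libraries, replicates 1 to 3, form 1 group, so there is no comparison between conditions, and the comparisons below are between genes and transcripts inside each library. The series belongs to a study of DNA supercoiling and topoisomerases in the neuronal genome. The labels do not give the age or strain of the animals, or whether the libraries came from separate cultures, so the spread between them may be technical. Whether the RNA was selected for poly(A) tails or depleted of ribosomal RNA is not given in the sources used here.

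Long noncoding RNAs are transcripts without a translated reading frame, and several act inside the nucleus as scaffolds for proteins. Malat1 collects in nuclear speckles, which hold splicing factors, and the long isoform of Neat1 builds paraspeckles, which hold RNA-binding proteins such as NONO and SFPQ. Miat, also called Gomafu, carries a short repeat that resembles the intron branch point. Pantr1, Dlx6os1 and Tug1 lie beside or across coding genes read from the other strand, and Rmst has been tied to SOX2 in neurogenesis.

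Sequences at the ends of Malat1 and Neat1 and in the Miat repeat are shown first, because the results below refer to them. The 3′ end of Malat1 and that of the long Neat1 isoform are cut by RNase P rather than polyadenylated, and U-rich motifs pair with an A-rich tract to protect the end. Capitals mark TTTTNCTTT, the U-rich motif, and GCAAAA, the end of the A-rich tract, both read on the strand of the RNA from GRCm38. The Malat1 stretch covers chr19:5795982-5796072 and the Neat1 stretch chr19:5824708-5824765, both on the minus strand.
Malat1: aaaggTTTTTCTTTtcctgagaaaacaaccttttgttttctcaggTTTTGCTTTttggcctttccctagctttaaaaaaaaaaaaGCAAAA
Neat1 long isoform: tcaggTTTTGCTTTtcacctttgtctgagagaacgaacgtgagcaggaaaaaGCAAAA

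In Malat1 the stretch holds 2 copies of the U-rich motif, and the annotated transcript runs on for 292 bases after it. A pair of U-rich motifs within 150 bases before a GCAAAA was found in 5 of 15671 long noncoding transcripts (0.032%), from 4 genes, of which Malat1 is 1, and on the other strand in 5 of the 15671. The Neat1 stretch ends the annotated long isoform and holds 1 copy. A U-rich motif together with at least 4 A directly before GCAAAA in the last 150 bases was found in 1 of the 15671 transcripts, the long Neat1 isoform itself, and on the other strand in 0.

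The short Neat1 isoform ends by polyadenylation within the first part of the gene. Its last 80 bases, at chr19:5842307-5842386 on the minus strand, carry the poly(A) signal AATAAA, shown in capitals, which starts 20 bases before the end. The signal stood in the last 80 bases of 32.1% of 15661 long noncoding transcripts, and its reverse complement in 5.67%. It was also present in the last 80 bases of the annotated Malat1 transcript and absent from those of the long Neat1 isoform.
Neat1 short isoform: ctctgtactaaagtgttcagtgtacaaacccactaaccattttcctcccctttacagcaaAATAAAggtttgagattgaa

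Miat carries 6 copies of TACTAAC, in capitals, in 2 clusters of 3. The clusters lie at chr5:112217309-112217460 and chr5:112216752-112216812, both on the minus strand. The density of 0.655 copies per kb compared with 0.0263 per kb over all long noncoding transcripts and 0.0235 per kb on their other strand. No copy was found on the other strand of Miat. Only 3 of the 15671 transcripts, from 2 genes including Miat, held 3 copies within 150 bases.
Miat first cluster: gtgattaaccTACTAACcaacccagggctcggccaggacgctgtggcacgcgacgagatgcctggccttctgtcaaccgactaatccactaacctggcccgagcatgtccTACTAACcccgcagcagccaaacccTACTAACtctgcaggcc
Miat second cluster: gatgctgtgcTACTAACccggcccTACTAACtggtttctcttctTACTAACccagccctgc

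The libraries held 30139341 to 34670274 reads on the transcripts used for coding genes. For the 6 members other than Rmst the counting error was 0.84% to 4.82% of the level, below their spread of 8.33% to 33.4% between libraries. All 10 pan-neuronal markers exceeded 1 TPM, at a median of 209.6 TPM. Astrocyte markers were also present, with 8 of 9 above 1 TPM and a median of 20.98 TPM, as were oligodendrocyte lineage markers, with 7 of 9 above it and a median of 1.49 TPM. Of the 6 microglial markers 1 reached 1 TPM, and of the 5 endothelial markers none did. Tmem119, a microglial marker, and Cldn5, an endothelial one, were listed at 0 in each library. By a limit of 3 reads this allows up to 0.031 and 0.049 TPM. The other markers of both lists were above 0 in each library, and the list medians were 0.28 TPM for microglia and 0.26 TPM for endothelium. The part of glial RNA in the levels below was not tested.

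Of the 7 members, 5 had a mean of at least 1 TPM, against 9.19% of all long noncoding genes and 61.8% of coding genes. The members were chosen as known RNAs, so the contrast with other long noncoding genes describes the choice. Rmst and Neat1, the members below 1 TPM, stood at 1.54 and 3.44 TPM when read by the transcript with the highest mean TPM. In order of level the members were Pantr1, Malat1, Miat, Tug1, Dlx6os1, Rmst and Neat1. That order held within each library for all 21 pairs of members, though the place of Rmst against Neat1 depended on the transcripts read, as given below.

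**Figure D1:**
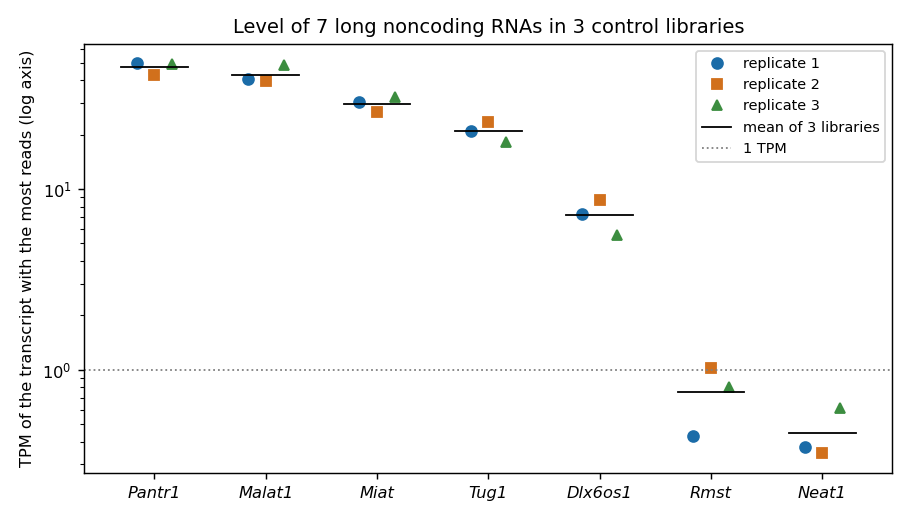
TPM of each member in replicates 1, 2 and 3 on a log axis, with the mean as a bar. Pantr1 and Malat1 overlap at the top, and Rmst and Neat1 lie below 1 TPM on average.

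Malat1, the nuclear speckle RNA, lies on chromosome 19 from 5795690 to 5802672 (GRCm38, minus strand, as are the other 6 members) as 1 exon of 6983 bases (Malat1-201). It stood at 40.8, 39.5 and 48.6 TPM in replicates 1 to 3, from 14608, 11922 and 15517 reads. The mean was 43.0 ± 4.95 TPM (SD, n = 3), which ranked it 11 among long noncoding genes and above 94.2% of coding genes. Replicate 3 was the highest library and the others lay close together.

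The reads of Malat1 were not even along the RNA. The 485 bases of the short 5′ transcript Malat1-203 stood at 75.2, 87.4 and 136.8 TPM. The 556 bases of the 3′ transcript Malat1-202 stood at 38.9, 36.1 and 39.4 TPM. The other 5942 bases stood at 38.2, 35.9 and 42.3 TPM. The 5′ segment was thus above the other segments in each library, 2.55 ± 0.64 times the remainder (exact sign-flip p = 0.25, n = 3, adjusted p = 0.281 over 9 ratios). The 3′ segment, of similar length to the 5′ segment, was at 0.984 ± 0.047 times the remainder (exact sign-flip p = 1.0, n = 3). It reaches to 5795691, so part of it lies in the 292 annotated bases after the A-rich tract. Its density is therefore not that of the cut 3′ end alone.

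Of these 3 segments, the 5′ segment also differed most between libraries. Replicate 3 exceeded replicates 1 and 2 by 1.82 and 1.56 times in the 5′ segment. The same ratios were 1.01 and 1.09 in the 3′ segment and 1.11 and 1.18 in the remainder. A 5′ model that the annotation used here does not name, within the span of Malat1-203, stood at 64.4, 73.8 and 109.4 TPM. It can share reads with Malat1-203, so its like order is not a separate measurement. Gm27694, an annotated 86-base domain 3.63 kb from the start of Malat1, stood at 130.9, 139.1 and 186.1 TPM. Replicate 3 was thus the highest there too, away from the 5′ end.

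Antisense models across Malat1 were near 0: Gm37376 had a mean of 0.016 TPM over the 5′ end and the other model was listed at 0. Reads on a model shorter than a read can reach past its ends, so the levels of models of about 100 bases are not comparable with those of long transcripts. Of 24 pairs of member transcripts in which 1 lies inside the exons of the other, the contained one never had the larger read count. The values of transcripts of 1 gene are therefore not separate measurements.

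Proteins of nuclear speckles were expressed alongside. All 16 listed genes exceeded 1 TPM, with a median of 32.1 TPM against 2.88 TPM for all coding genes. Srsf11, a serine and arginine rich splicing factor, was the highest at 59.5 ± 17.3 TPM (n = 3). Srsf5, another of this family, followed at 50.8 ± 2.09 TPM, and Sf3b1, a subunit that recognises the branch point, at 45.3 ± 2.005 TPM. Thrap3, an RNA processing factor, was the lowest at 8.78 ± 0.27 TPM. Malat1 itself lay within the range of these genes on the TPM scale.

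Neat1, the paraspeckle scaffold, spans 5824708 to 5845478 on the same strand of chromosome 19, and its 3′ end lies 22.0 kb from the start of Malat1. The long isoform Neat1-201 is a single exon of 20771 bases, and its TPM was 0.375, 0.344 and 0.615 in replicates 1 to 3, with a mean of 0.445 ± 0.149 (n = 3). The short isoform Neat1-202, of 3004 bases, stood at 2.47, 2.23 and 4.05 TPM, a mean of 2.92 ± 0.99. The fully contained model Neat1-203 stood at 2.99, 2.69 and 4.63 TPM. Replicate 3 was again the highest for each.

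Nearly all Neat1 reads fell inside the short isoform. The long isoform had 399, 309 and 584 reads, and the short one 380, 290 and 556 of them. The remaining 17767 bases had 19, 19 and 28 reads, or 0.021, 0.025 and 0.035 TPM. That count includes the 166 bases between the exons of the short isoform. Outside the short isoform lay 5.24 ± 0.79% of the reads (n = 3).

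Per base, the short isoform was 118, 90.3 and 117 times as densely read as the rest of the gene. The log2 ratio of outside to inside was -6.75 ± 0.22 (exact sign-flip p = 0.25, n = 3, adjusted p = 0.281 over 9 ratios). The poly(A) signal printed above stands at the end of the densely read part, and the A-rich end of the long isoform lies in the thinly read part. By 50-base words, 99.4% of the long isoform was unique in the genome.

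RNAs known to lack a poly(A) tail were then read beside Neat1, a choice made after the values were seen. Malat1, whose 3′ end is described above as cut rather than polyadenylated, stood at 43.0 ± 4.95 TPM (n = 3). The others read here are short, at 271 to 423 bases. Rn7sk, which restrains transcription elongation, stood at 4.25 ± 0.38 TPM (n = 3). Rpph1, the RNA of RNase P, stood at 0.779 ± 0.191 TPM and Rmrp, of RNase MRP, at 0.055 ± 0.048 TPM. Terc, the telomerase RNA, was listed at 0, where 0 reads allow up to 0.164 TPM by a limit of 3 reads. The part of RNA selection in the Neat1 ratio was not tested.

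All 16 listed genes of paraspeckle proteins exceeded 1 TPM, with a median of 20.9 TPM. Matr3, a nuclear matrix protein, was the highest at 96.8 ± 7.28 TPM (n = 3). Hnrnpk, an RNA-binding protein of paraspeckles, followed at 69.0 ± 2.64 TPM. The lowest was Rbm14 at 4.54 ± 0.018 TPM. Each of these genes thus lay above both Neat1 isoforms on the TPM scale.

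**Figure D2:**
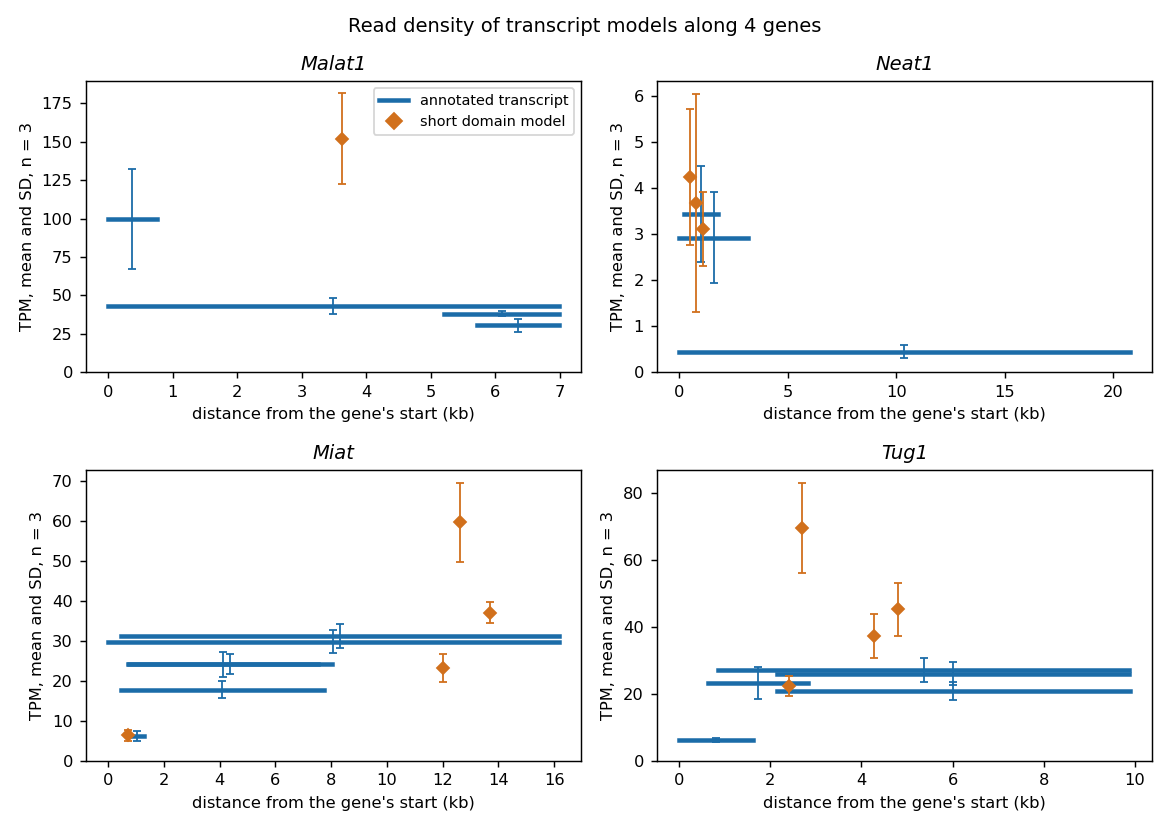
Mean TPM with SD over 3 libraries for each annotated transcript (horizontal bars, spanning it from the gene's start in kb) and each short domain model (diamonds) of Malat1, Neat1, Miat and Tug1. The 5′ transcript is the highest of the annotated transcripts of Malat1, with a domain model above it, the long bar of Neat1 stands below its short isoform, and the 5′ models of Miat and Tug1 are the lowest of their genes.

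Malat1 and Neat1 had their highest library in common. Among the members, 3 of 7 were highest in replicate 3 (Malat1, Neat1 and Miat), as were 43.1% of the long noncoding genes and 31.5% of the coding genes of at least 1 TPM. Of the 5 members of at least 1 TPM, 2 were highest there (Malat1 and Miat), which is near the share of long noncoding genes at that level. A replicate 3 at 1.5 times or more of both others, as in the Malat1 5′ segment and the short Neat1 isoform, was found for 0.489% of those coding genes. That fold was chosen after the values were seen. The share is over whole-gene values and was not taken for segments, so it does not say how rare such a segment is. Malat1 as a whole, with replicate 3 at 1.19 and 1.23 times replicates 1 and 2, did not reach the fold.

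Immediate early genes, which respond quickly to neuronal activity, moved with the same library. Of the 13 above 1 TPM, 12 were highest in replicate 3, among them Egr1 at 16.8, 15.8 and 21.2 TPM and Fos at 3.36, 4.51 and 6.34 TPM. Oligodendrocyte lineage markers were highest there in 5 of 7 and astrocyte markers in 5 of 8, and pan-neuronal markers were lowest there in 9 of 10, against 41.0% of coding genes of at least 1 TPM. Pdgfra, of oligodendrocyte precursors, stood at 11.5, 4.94 and 18.4 TPM. The part of these in the Malat1 and Neat1 values was not tested.

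**Figure D3:**
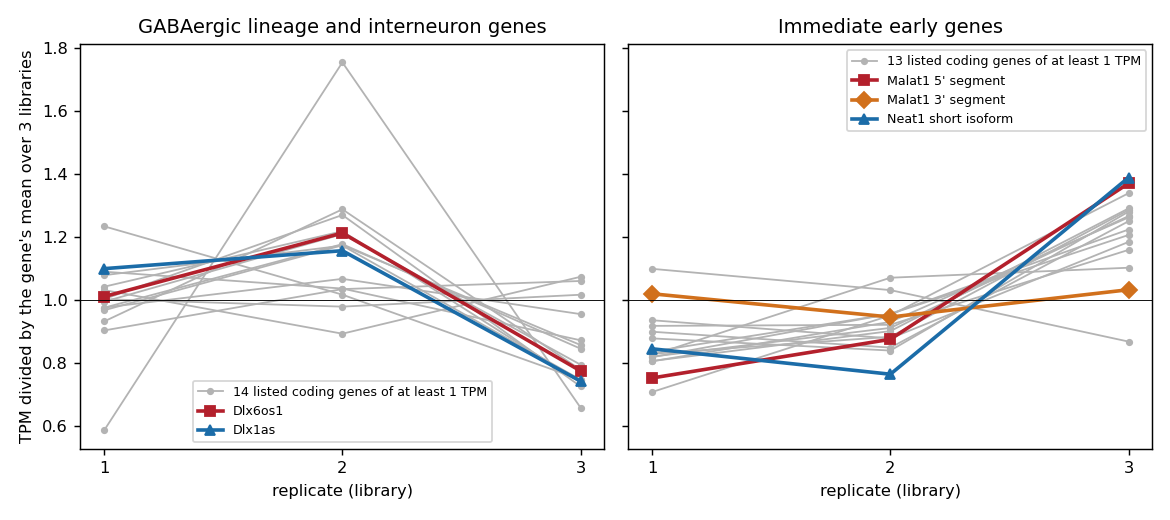
TPM of each gene divided by its mean over 3 libraries, by replicate; lines join the values of 1 gene and imply no order of libraries. On the left Dlx6os1 and Dlx1as stand with 14 genes of the GABAergic list, and on the right the Malat1 5′ segment and the short Neat1 isoform are highest in replicate 3 beside 13 immediate early genes, while the Malat1 3′ segment is nearly level.

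Miat, a neuronal nuclear RNA, lies on chromosome 5 from 112213228 to 112229395 and has 7 exons and 9163 bases in Miat-205. It stood at 30.3, 26.7 and 32.3 TPM in replicates 1 to 3, with 14242, 10586 and 13513 reads. The mean was 29.8 ± 2.82 TPM (n = 3), rank 16 among long noncoding genes. Miat-201 drew on the same reads, 14241 in replicate 1 and the same number as Miat-205 in the others.

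The 5′ model Miat-204 was read less densely than the whole Miat transcript. This model, of 284 bases and not contained in the exons of Miat-205, stood at 6.11, 5.05 and 7.40 TPM, and the whole transcript at 4.87 ± 0.47 times that (exact sign-flip p = 0.25, n = 3). Miat-202 and Miat-206, which start near it, had means of 24.2 and 24.1 TPM. Of 4 domain models inside Miat, Gm27357 near the start was the lowest at 6.35 ± 1.38 TPM.

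The repeat copies printed above fall within annotated domain models of Miat. Their clusters lie between bases 4931 and 5639 of the 9163 bases of Miat-205. Gm27627, which covers the 3 copies of the first cluster, stood at 24.8, 19.3 and 25.5 TPM. Gm27882, 74 bases around the second cluster, stood at 70.4, 51.0 and 57.7 TPM. Both models of the repeat were thus read in every library. The antisense model Gm26953 over the first cluster had a mean of 0.033 TPM.

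The listed splicing factors, chosen as tied to Miat, were all expressed. Celf3, a neuronal RNA-binding protein, stood at 38.4 ± 1.94 TPM, Qk (quaking) at 35.6 ± 2.45 TPM and Srsf1 at 33.1 ± 1.69 TPM (n = 3). Sf1, the branch point binding protein, stood at 17.03 ± 0.37 TPM. Miat was therefore at a level like that of these coding genes on the TPM scale.

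Tug1, an RNA of broad expression, lies on chromosome 11 from 3639785 to 3649673. Its most read transcript, Tug1-201, stood at 20.9, 23.6 and 18.2 TPM in replicates 1 to 3 with a mean of 20.9 ± 2.67 (n = 3), rank 22 among long noncoding genes. Here replicate 2 was the highest and replicate 3 the lowest, the opposite of Malat1. Of the members' main transcripts it was the least unique, at 91.1% of 50-base words.

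Tug1-201 keeps sequence that the spliced Tug1-203 removes. The 1597 bases outside Tug1-203 stood at 3.93, 4.72 and 4.67 TPM, against 26.2, 29.5 and 22.5 TPM inside. The inside was 5.90 ± 0.97 times as densely read (exact sign-flip p = 0.25, n = 3). The spliced form Tug1-202 was in turn 4.38 ± 0.28 times as high as the 5′ model Tug1-205 (exact sign-flip p = 0.25, n = 3). Reads in the outside bases did not follow the spliced exons, since replicate 1 and not replicate 3 was the lowest.

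The outermost annotated start of Tug1, that of Tug1-205, lies 482 bases from the start of Morc2a, and the genes overlap. Morc2a is a coding gene for a chromatin ATPase read from the other strand. Tug1-201, whose level is compared here, starts further in, at 3647526. Morc2a stood at 12.1, 12.4 and 12.3 TPM, an SD of 0.168 TPM against 2.67 TPM for Tug1. Tug1 was higher in all 3 libraries, and the log2(TPM + 0.1) difference was 0.76 ± 0.18 (exact sign-flip p = 0.25, n = 3). The nearest coding genes on either side were Smtn at 0.340 ± 0.129 TPM and Osbp2 at 8.58 ± 0.74 TPM.

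Pantr1, the divergent RNA of the neural factor gene Pou3f3, had the highest mean of the 7 members. It lies on chromosome 1 from 42590782 to 42694842, and its most read transcript Pantr1-207 has 4 exons and 680 bases. It stood at 49.6, 42.7 and 49.3 TPM in replicates 1 to 3, from 1729, 1254 and 1532 reads, with a mean of 47.2 ± 3.93 TPM (n = 3) and rank 10 among long noncoding genes. Replicate 2 was the lowest, and the others differed little.

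Several of the 12 Pantr1 transcripts in the table share exons, but not all do: Pantr1-204 and Pantr1-205 do not overlap. Pantr1-201, of 198 bases within the exons of Pantr1-207, held 67.3%, 74.0% and 70.9% of its reads and stood at 114.6, 108.4 and 120.1 TPM. Pantr1-208, which reaches over the full 104.1 kb of the gene, stood at 11.4, 10.4 and 11.9 TPM, and Pantr1-207 was 4.19 ± 0.15 times as high (exact sign-flip p = 0.25, n = 3). Pantr1-205, at the end nearest Pou3f3, had only 157, 68 and 151 reads, or 1.99, 1.02 and 2.14 TPM.

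Pou3f3 starts, on the other strand, 926 bases from the outermost annotated start of Pantr1 (Pantr1-207 starts further in, at 42693153). It stood at 11.3, 12.8 and 12.8 TPM, and Pantr1 was higher in all 3 libraries, with a log2(TPM + 0.1) difference of 1.93 ± 0.20 (exact sign-flip p = 0.25, n = 3). The libraries did not order the pair alike: replicate 1 was the highest for Pantr1 and the lowest for Pou3f3. Of the related genes, Pou3f2 stood at 4.25 ± 0.57 TPM, Pou3f1 at 3.58 ± 0.74 TPM and Pou3f4 at 1.70 ± 0.094 TPM (n = 3). Tmem182, the nearest coding gene on the other side at 1733.9 kb, stood at 0.071 ± 0.011 TPM.

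Dlx6os1, also called Evf2, is transcribed across Dlx6 and the enhancers between Dlx5 and Dlx6, which serve the GABAergic lineage. It lies on chromosome 6 from 6820189 to 6871592. Its transcript Dlx6os1-201 stood at 7.26, 8.70 and 5.57 TPM in replicates 1 to 3, from 1580, 1598 and 1080 reads, with a mean of 7.17 ± 1.57 TPM (n = 3) and rank 64 among long noncoding genes. Replicate 2 was the highest and replicate 3 the lowest. The SD of its log2 values exceeded that of 94.2% of genes of at least 1 TPM.

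Dlx6os1 stood above Dlx5 and Dlx6, the coding genes of its locus. Dlx5, a homeobox factor of GABAergic precursors, was at 2.63, 2.503 and 2.11 TPM, and Dlx6, its neighbour, at 1.24, 1.36 and 1.22 TPM. The differences were 1.52 ± 0.21 and 2.39 ± 0.25 on the log2(TPM + 0.1) scale, positive in each library (exact sign-flip p = 0.25, n = 3 for both). Dlx6os2, a model on the strand of Dlx6os1 within Dlx6, was listed at 0. Sem1, the nearest coding gene on the other side at 241.5 kb, stood above Dlx6os1 at 29.4 ± 1.85 TPM.

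Part of the GABAergic list had the library order of Dlx6os1. Gad1, which makes GABA, stood at 84.9, 107.5 and 61.5 TPM, and Gad2, its second enzyme gene, at 24.7, 34.2 and 20.7 TPM. Sst, the peptide gene of a class of interneurons, was the highest of the list at 131.4, 108.4 and 79.7 TPM, a mean of 106.5 ± 25.9, with replicate 1 on top. Pvalb, of another class, was the lowest at 0.267 ± 0.154 TPM (n = 3). Dlx1as, the antisense RNA of Dlx1, stood at 18.4, 19.4 and 12.5 TPM.

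The order replicate 2 over 1 over 3 was shown by 8 of the 14 listed GABAergic genes of at least 1 TPM, against 24.0% of coding genes. Dlx1, Sp8 and Calb2 of that list were instead highest in replicate 3. Among long noncoding genes of at least 1 TPM it was shown by 16.3%, and among the members by Dlx6os1 and Tug1. Pan-neuronal markers had the same order in 6 of 10, so it was not particular to GABAergic genes. In bulk RNA, fewer cells of a type and less RNA per cell cannot be told apart.

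Rmst, an RNA of neural precursors, lies on chromosome 10 from 92071037 to 92165170 and was among the lowest members. By identifier its most read row was Rmst-201, of 407 bases, at 0.431, 1.02 and 0.807 TPM from 9, 18 and 15 reads, a mean of 0.754 ± 0.299 TPM (n = 3). The other such row, the 60-base Rmst-202, had 5, 3 and 5 reads. The spread of 39.7% between libraries compares with a counting error of 26.7%.

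Positions identical to annotated Rmst transcripts gave 12 further rows, read after the values by identifier were seen. The most read, Rmst-209, has 13 exons and 2679 bases, and had 42, 33 and 41 reads or 0.306, 0.285 and 0.335 TPM. Its mean was 0.309 ± 0.025 TPM (n = 3), lower and steadier than that of Rmst-201. On that row Rmst fell below Neat1 in mean level, so their order is not settled. The antisense model Gm26700 was listed at 0, where 0 reads allow up to 0.035 TPM.

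Sox2, the partner of Rmst and a factor of neural stem cells, stood at 14.99, 17.3 and 21.6 TPM. Rmst-201 was lower by 4.46 ± 0.45 on the log2(TPM + 0.1) scale (exact sign-flip p = 0.25, n = 3). Of 10 listed stem and progenitor genes 9 exceeded 1 TPM, with a median of 5.78 TPM. Fabp7, a lipid-binding protein of radial glia and astrocytes, was the highest at 419 ± 81.4 TPM, followed by Vim at 44.8 ± 6.78 TPM and Hopx at 27.6 ± 4.39 TPM. Eomes, of intermediate progenitors, was the lowest at 0.013 ± 0.017 TPM.

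**Figure D4:**
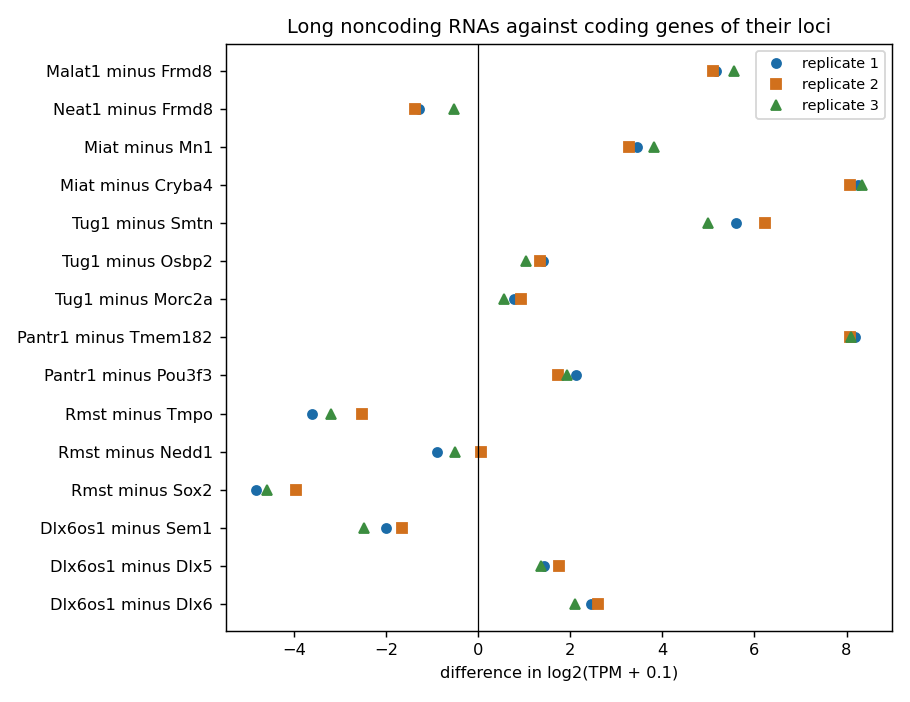
Difference in log2(TPM + 0.1) between each member and nearest or overlapping coding genes, up to 1733.9 kb away, or its named partner, 1 point per library. Malat1, Miat, Tug1 and Pantr1 lie right of 0 against each gene shown. Neat1, read by its long isoform, lies left of 0, and Rmst minus Nedd1 crosses 0.

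By their most read transcripts, Malat1 and Neat1 differed in their place against a coding gene of their shared locus. Frmd8, which supports the release of membrane proteins, is the nearest on 1 side of both, at 1.01 ± 0.069 TPM (n = 3). Malat1 was above it in all 3 libraries, and the log2(TPM + 0.1) difference was 5.28 ± 0.25. Neat1 was below it, with a difference of -1.06 ± 0.46. With the transcript of the highest TPM taken for both genes, Neat1 minus Frmd8 turned to 1.21, and with the sum over transcripts to 0.60.

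Miat lay above Mn1, which is 756.2 kb away and stood at 2.52 ± 0.28 TPM. Cryba4, a lens crystallin gene 17.1 kb away, was listed at 0, where 0 reads allow up to 0.093 TPM. Rmst lay below Tmpo, which is 889.7 kb away and stood at 6.99 ± 1.04 TPM. It was not separated from Nedd1, which is 519.6 kb away and stood at 1.01 ± 0.16 TPM. Rmst minus Nedd1 was -0.44 ± 0.48, or -0.22 without replicate 1 and -0.70 without replicate 2. Over the 17 such pairs 16 kept 1 sign in each library, with p = 0.25, the smallest that the exact two-sided sign-flip test gives with 3 libraries, and adjusted p = 0.266. No pair could reach 0.05.

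Neighbours in the order of levels were compared in the same way over 6 pairs. Pantr1 exceeded Malat1 by 0.14 ± 0.13 on the log2(TPM + 0.1) scale, or 0.065 without replicate 1, and their libraries overlapped. Malat1 exceeded Miat by 0.53 ± 0.09, Miat exceeded Tug1 by 0.51 ± 0.32 and Tug1 exceeded Dlx6os1 by 1.54 ± 0.14, without overlap of libraries. Dlx6os1 exceeded Rmst by 3.13 ± 0.59, also without overlap. Rmst and Neat1, apart by 0.61 ± 0.63, or 0.25 without replicate 2, overlapped. Each exact sign-flip p was 0.25 (n = 3), before and after adjustment.

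**Figure D5:**
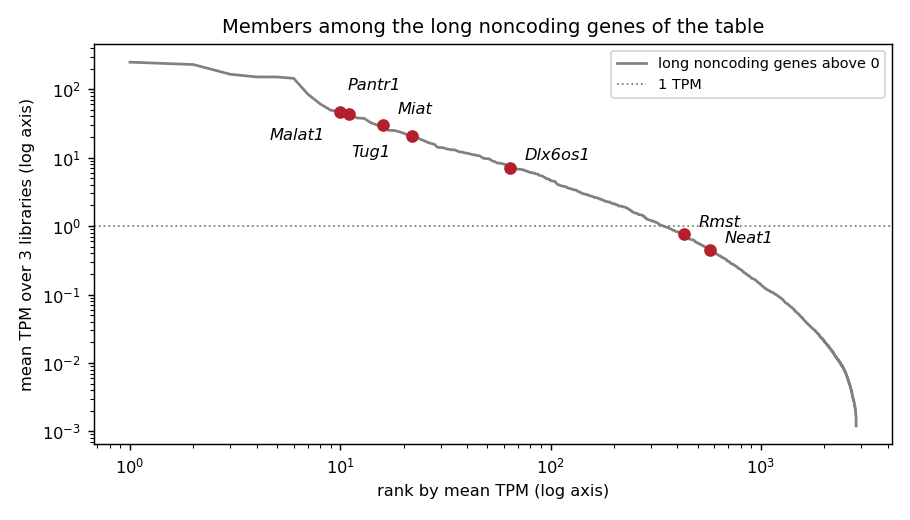
Mean TPM of the long noncoding genes above 0, ranked from the highest, on log axes, with the 7 members as points. Pantr1 holds rank 10 and Neat1 rank 572.

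Other long noncoding RNAs put these levels in place. The ranks are over all genes that the annotation types as long noncoding. Among those above the members are Gm42418 at 229.9 TPM and Cct6a at 151.4 TPM, and whether such entries are true long noncoding RNAs was not tested. Of 31 listed genes with a value 20 exceeded 1 TPM, and the median over all long noncoding genes was 0.027 TPM. Rian and Meg3, maternally expressed RNAs of an imprinted cluster, stood at 248.8 ± 27.0 and 151.1 ± 19.3 TPM (n = 3), and 1700020I14Rik at 85.2 ± 20.1 TPM. Each was above all 7 members. Fendrr, an RNA of mesoderm, was the lowest of the list at 0.0055 ± 0.0095 TPM.

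Coding genes with the most similar pattern over the 3 libraries were ranked by the distance between centred log2(TPM + 0.1) values, over 7410 coding genes of at least 5 TPM. For Dlx6os1 they were Nrxn3, a presynaptic adhesion protein gene, with 14.2, 17.3 and 11.0 TPM, then Kazn and Lgi2. For Neat1 they were Apoe, the lipid carrier of astrocytes, with 365, 344 and 549.6 TPM, then Gm49325 and E130114P18Rik. For Malat1 they were Fkbp4, U2af1l4 and Prpf3, and for Miat Nfil3, Mrpl17 and Zfp580.

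For Tug1 the nearest were Canx, Ppp3cb and Pcnx, and for Pantr1 Dpagt1, Bnip1 and Cdk10. For Rmst they were Stk3, Ndufs5 and Nfe2l2. With 3 libraries such likeness is common: 394 coding genes lay within 0.1 log2 units of Malat1, 449 of Miat, 524 of Pantr1 and 619 of Tug1. There were 41 for Dlx6os1, 10 for Neat1 and 0 for Rmst.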

How the data were processed

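RNA libraries of 3 control samples were made with column-extracted total RNA and a KAPA kit according to the extract field, per the labels' protocols. Named in the submitters' processing notes are FastQC 0.11.2, STAR 2.5.3a, featureCounts, Subread 1.4.6 and build mm10. A deposited table gives the authors' TPM for 84660 transcripts, and each column has the same sum, so depth is not given directly.

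Transcript identifiers, less their version, were looked up in GENCODE M21 on GRCm38; 98.1% matched. TPM times length was a whole multiple of 1 constant per library, within 0.01 of a read, for 99.8% of rows above 0 with unchanged coordinates and 89.9% of all matched rows above 0. Reads were taken from these. For Tug1-201 and Dlx6os1-201 the length was the only one within 10% of the annotated length that gave whole reads in every library. A floor of 3 reads covers counting error only. Sums over transcripts count shared reads repeatedly and were kept as an alternative.

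Differences used log2(TPM + 0.1), which understates differences of low genes, with two-sided exact sign-flip permutation tests and Benjamini-Hochberg adjustment. Named are the members, their nearest coding genes and partners, the 3 highest and the lowest gene of 5 lists, all of the short lists, and the 3 coding genes most alike in pattern; others were chosen after their values were seen. Some genes the rule names are not reported here. Uniqueness was measured with 50-base words on both strands of 22 chromosomes. The members and lists were chosen with earlier results of these data known. The work ran in Python 3.11.15 with matplotlib 3.10.9, pandas 2.3.3 and numpy 2.4.6.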

Additional observations from a re-analysis of the deposited data

How the results depend on the processing

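No paired analysis was possible because the 3 libraries form 1 group. How transcripts of a gene were combined moved the levels most. The transcript with the highest mean TPM gave 114.4 TPM for Pantr1, 99.8 for Malat1, 27.1 for Tug1, 1.54 for Rmst and 3.44 for Neat1. The sum over transcripts, which counts shared reads repeatedly, gave 600.5 TPM for Pantr1, 211.5 for Malat1, 133.2 for Miat, 103.5 for Tug1, 14.5 for Dlx6os1, 2.29 for Rmst and 6.80 for Neat1. Rows matched also by coordinates, added after seeing the data, gave 0.309 TPM for Rmst, and the short isoform gave 2.92 TPM for Neat1.

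The difference of Rmst minus Neat1 turned to -1.098 with the highest TPM transcript, -1.49 with the sum and -0.38 with rows matched by coordinates. Neat1 minus Frmd8 turned to 1.21 and 0.60, and Rmst minus Nedd1 to 0.54 and 1.103, with the highest TPM transcript and the sum. The cause was not tested. Of the pairs next to each other in level, the other 5 kept their direction under the alternatives run. The log2 ratio of Neat1 outside to inside the short isoform was -6.75 from reads. The log2 ratio of the TPM of the long to the short transcript was -2.71. The long transcript contains the short one and its reads, so this second ratio is not one of outside to inside. It cannot test the first.

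Percentiles among long noncoding genes became 99.42 for Pantr1, 99.36 for Malat1, 99.07 for Miat, 98.72 for Tug1, 96.26 for Dlx6os1, 74.90 for Rmst and 66.67 for Neat1 over the 1713 genes above 0 in every library. With the sum they were 99.87 for Pantr1, 99.81 for Malat1, 99.62 for Miat, 99.54 for Tug1, 92.50 for Rmst and 96.44 for Neat1. Without each replicate in turn that of Pantr1 ranged from 99.73 to 99.76. The count of members above the minimum, 5 of 7 at 1 TPM, was 7 with the sum over transcripts and with a minimum of 0.1 TPM. It was 5 in the other 5 alternatives run. The transcript with the highest mean TPM was not run for this count. By that transcript Rmst and Neat1, at 1.54 and 3.44 TPM, also lay above 1 TPM, so the count depends on the transcript read. Depth limits Rmst, with at most 18 reads on its main transcript in a library.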
